A study of Mus musculus with 6 samples.

Results

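Snord89, Snord35b and Snord83b are box C/D small nucleolar RNAs (snoRNAs) found in the RNA of extracellular vesicles (EVs) from WEHI-231 cells, a mouse splenic B cell lymphoma line. They are 3 of the 47729 genes in the count tables and 3 of the 150 genes with a snoRNA name (symbols Snord, Snora and Scarna). They were picked because, among the 61 named snoRNAs that passed the filter on low counts, they had the smallest p between the conditions in a fit across all genes. Their difference between the conditions was thus used to choose them, and it is given below as a description with no test of its own. Cells of both conditions were stimulated for 1 h, the 3 isotype samples with 10 µg/mL of an isotype control antibody and the 3 anti-CD24 samples with 10 µg/mL of the rat anti-mouse M1/69 antibody against the surface receptor CD24. Each antibody had first been mixed with a secondary antibody at 5 µg/mL, and both groups were cultured in vesicle-depleted medium. The isotype antibody stood in for an unstimulated control, all samples came from a single cell line, and EVs were captured from the supernatant with the Vn96 peptide. The isotype libraries all carried barcode 1 and the anti-CD24 libraries all carried barcode 2, so barcode and condition cannot be told apart, and the names of the deposited data give the libraries of the same replicate number 1 run name, which the sample labels do not state.

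Many box C/D snoRNAs, but not all, are guides for the methylation of ribose in ribosomal RNA. Each box C/D snoRNA carries a C box near its start and a D box near its end. A short stem formed by both ends of the RNA brings the boxes together. In a guide, the bases just before the D box or an inner copy of it pair with the target. The RNA is bound by Snu13, Nop56, Nop58 and the methyltransferase fibrillarin (Fbl). Most vertebrate snoRNAs lie in introns and are released from the spliced intron of a host gene, often a gene for a ribosomal protein, so the snoRNA and the host mRNA come from 1 transcript. They act in the nucleolus, and their occurrence in vesicles outside the cell has been described for other cell types.

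The sequences of the 3 snoRNAs are shown because their boxes and stems identify the RNAs that were counted, and that of Snord35a because it is the relative of Snord35b. They are the transcripts of the GENCODE M21 annotation of GRCm38, 5′ to 3′, and all 4 lie on the minus strand. Capitals mark the start of the C box (TGATG, the first within 25 bases of the start) and the D box (CTGA, the last within 25 bases of the end).
Snord89, chr1:39548745-39548854: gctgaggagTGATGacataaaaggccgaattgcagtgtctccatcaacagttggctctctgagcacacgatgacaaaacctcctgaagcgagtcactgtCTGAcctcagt
Snord35b, chr7:45123025-45123111: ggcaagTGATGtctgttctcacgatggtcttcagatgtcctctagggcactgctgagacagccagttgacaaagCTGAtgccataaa
Snord83b, chr15:80078498-80078591: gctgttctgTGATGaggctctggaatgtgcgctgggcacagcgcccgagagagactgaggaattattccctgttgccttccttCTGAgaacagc
Snord35a, chr7:45126346-45126435: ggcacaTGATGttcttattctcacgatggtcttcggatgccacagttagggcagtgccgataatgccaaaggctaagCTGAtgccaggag

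All 3 snoRNAs carried both boxes in the places a box C/D snoRNA has them. The full C box TGATGA began at base 10 in Snord89 and in Snord83b, while in Snord35b the run TGATG at base 7 was followed by T. The D box lay 7 bases from the end in Snord89 and Snord83b and 9 bases from the end in Snord35b. Searched on the transcribed strand only, TGATG near the start together with CTGA near the end was found in 87.8% of the 98 genes with a Snord symbol and the biotype snoRNA, in 0 of 42 genes with a Snora symbol (box H/ACA snoRNAs, another class) and in 362 of all 1507 snoRNA genes. The ends of Snord83b could pair over 8 bases, gctgttct with agaacagc, those of Snord89 over 6 bases and those of Snord35b over 4 bases. The run in Snord83b takes in the last base of its D box, while those in Snord89 and Snord35b begin after theirs. The RNAs were 110, 87 and 94 bases long for Snord89, Snord35b and Snord83b, with a G and C content of 50.0%, 49.4% and 55.3%. RefSeq gives the same ends for Snord35b, but 94 bases for Snord89 and 77 bases for Snord83b, so the lengths of Snord89 and Snord83b depend on the annotation.

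Snord35b shared a run of 17 bases with Snord35a, ttctcacgatggtcttc, from base 16 of Snord35b and base 18 of Snord35a. The longest run that any pair of the 3 members shared was 7 bases. Both U35 snoRNAs are described as guides for 28S rRNA, the large ribosomal RNA of the cytosolic ribosome. For Snord89 and Snord83b no target is given here. No other annotated transcript matched Snord89 or Snord83b over at least 30 bases at 90% identity, so no transcript that could share their reads was found.

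Snord89 and Snord83b each lay in an intron of a gene on the same strand. Snord83b lay in intron 7 of Rpl3, which encodes a protein of the large ribosomal subunit, 115 bases after the upstream exon and 71 bases before the next. Snord89 lay in intron 2 of Gm15832, annotated as a processed transcript with no protein, in an intron of 1264 bases, against 280 bases for that of Snord83b. No exon of another gene overlapped Snord89 or Snord83b.

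**Figure D1:**
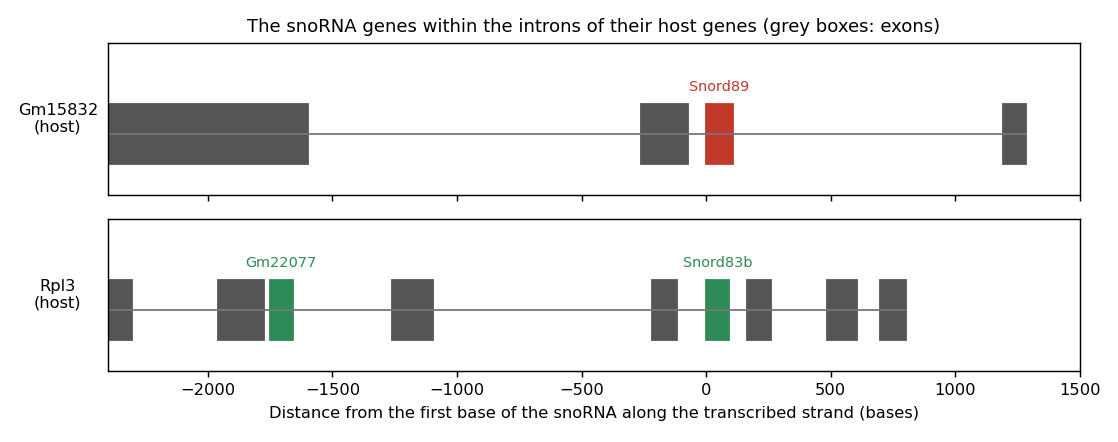
Position of the Snord89 and Snord83b genes (coloured boxes) relative to exons of 1 transcript of each host gene (grey boxes), with distance in bases from the first base of the snoRNA along the transcribed strand. Snord83b sits in an intron of 280 bases, and Snord89 lies 71 bases behind an exon at the near end of an intron of 1264 bases. Gm22077 is a predicted snoRNA in another intron of Rpl3.

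The libraries held 166129 (isotype replicate 2) to 794185 (anti-CD24 replicate 3) counts on genes, and genes of biotype snoRNA took 540 to 13593 of them. The snoRNA counts were spread unevenly within the anti-CD24 group, at 2.23%, 0.841% and 0.170% of all gene counts in replicates 1, 2 and 3, against 0.325% to 0.510% in the isotype samples. The 96 other genes with a Snord symbol summed to 3645, 2438 and 2386 CPM (counts-per-million, relative to all gene counts of the library) in isotype replicates 1, 2 and 3, and to 14886, 6371 and 1206 CPM in the anti-CD24 replicates. Anti-CD24 replicate 1 was the highest of the 6 libraries in this sum. Anti-CD24 replicate 3 was the lowest in CPM, but not after scaling by the TMM factors of the gene-level fit, with 2355 CPM against 1812 CPM in isotype replicate 2. These factors, which multiply the library size, were 1.11, 1.35 and 0.873 in the isotype samples and 1.09, 1.37 and 0.512 in the anti-CD24 samples, so they raise the level of anti-CD24 replicate 3 most. CPM below is without these factors unless stated. The B cell genes checked had 0 to 11 counts in all per sample, with none of Ptprc. Of the genes of other cell types, Cd3e, Cd14 and Alb had none, while the globin Hbb-bs had 38 counts, all in anti-CD24 replicate 1, and the part of RNA from such cells in the snoRNA levels was not tested. More vesicles and more RNA per vesicle cannot be told apart in such samples.

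Snord89 was higher in every anti-CD24 sample than in any isotype sample. The isotype samples had 8, 0 and 3 counts in replicates 1, 2 and 3, which were 24.8, 0 and 3.93 CPM. The anti-CD24 samples had 81, 64 and 37 counts, which were 133, 86.9 and 46.6 CPM. The groups did not overlap, with the lowest anti-CD24 sample 1.88 times the highest isotype sample. The 95% Wilson intervals, which cover counting error only, ran up to 49.0 CPM in isotype replicate 1 and down to 33.8 CPM in anti-CD24 replicate 3, so these 2 samples were not separated by counting error alone. A count of 0 in isotype replicate 2, the shallowest library, allows up to 18.1 CPM (3 counts), and the upper end of its Wilson interval was 23.1 CPM. The isotype mean was 9.58 ± 13.3 CPM and the anti-CD24 mean 88.7 ± 43.1 CPM (± SD, n = 3 each), a ratio of 9.26.

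Between libraries of the same replicate number, Snord89 was 5.35 times as high after anti-CD24 in replicate 1 (counting interval 2.59 to 12.8). In replicate 2, where the isotype library held 0 counts, the ratio was 4.81 when 3 counts were taken for that library. This value leaves out the counting error of the anti-CD24 library. The counting interval of this pair had a lower end of 3.73 with TMM factors. In replicate 3, where the isotype library held 3 counts, the ratio was 11.9 with a counting interval of 3.76 to 60.1. Anti-CD24 replicate 3 was the lowest of the anti-CD24 samples for Snord89, but with TMM factors replicate 2 was, at 63.3 CPM against 121 and 91.0 CPM in replicates 1 and 3. On that scale the isotype samples had 22.4, 0 and 4.50 CPM, so the groups did not overlap either.

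Snord35b was high in anti-CD24 replicates 1 and 2, but not in replicate 3. The isotype samples had 9, 0 and 15 counts (27.9, 0 and 19.6 CPM), and the anti-CD24 samples had 189, 67 and 6 counts (310 CPM, 91.0 CPM and 7.55 CPM). The groups overlapped, since anti-CD24 replicate 3 was below isotype replicates 1 and 3. The isotype mean was 15.9 ± 14.3 CPM and the anti-CD24 mean 136 ± 156 CPM (± SD, n = 3 each), and in the anti-CD24 group the SD was larger than the mean. Snord35b was 11.1 times as high in the anti-CD24 as in the isotype library of replicate 1 (counting interval 5.72 to 24.6). In replicate 2 the ratio was 5.04 when 3 counts were taken for the isotype library, and its counting interval had a lower end of 3.91 with TMM factors. In replicate 3 the ratio was 0.385 (counting interval 0.122 to 1.05), the opposite direction, though its interval reached above 1. With TMM factors this ratio was 0.656 (0.209 to 1.79).

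Snord35a, the relative of Snord35b encoded in the ribosomal protein gene Rpl13a, had 18, 1 and 30 counts in the isotype samples and 242, 93 and 10 in the anti-CD24 samples. It was highest in the same library as Snord35b, and in anti-CD24 replicate 3 it too was below isotype replicates 1 and 3. Snord35b held 43.9% of the counts of the pair in anti-CD24 replicate 1 (95% Wilson interval 39.2% to 48.6%), 41.9% in replicate 2 (34.5% to 49.6%) and 37.5% in replicate 3 (18.5% to 61.4%). It held 33.3% in isotype replicate 1 (18.6% to 52.2%) and 33.3% in isotype replicate 3 (21.4% to 47.9%). The intervals of these 5 libraries overlapped, and isotype replicate 2 had a single count of the pair.

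Snord83b was the most abundant of the 3 in every library and followed the same order of samples as Snord35b. The isotype samples had 71, 6 and 82 counts, which were 220 CPM, 36.1 CPM and 107 CPM. The anti-CD24 samples had 941, 251 and 51 counts, which were 1542 CPM, 341 CPM and 64.2 CPM. The groups overlapped, with anti-CD24 replicate 3 below isotype replicates 1 and 3. The isotype mean was 121 ± 92.8 CPM and the anti-CD24 mean 649 ± 786 CPM (± SD, n = 3 each), again with an SD above the mean. In replicate 1 the anti-CD24 library was 5.50 to 9.04 times (counting interval) and in replicate 2 it was 9.44 times (4.28 to 26.0) as high as the isotype library of the same number. In replicate 3 it was 0.598 times as high (0.413 to 0.859) in CPM, but 1.02 times (0.705 to 1.46) with TMM factors, so the lower level in this pair depends on the scaling. On that scale the isotype samples had 199, 26.8 and 123 CPM, and anti-CD24 replicate 3 lay between isotype replicates 3 and 1, so the groups still overlapped.

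**Figure D2:**
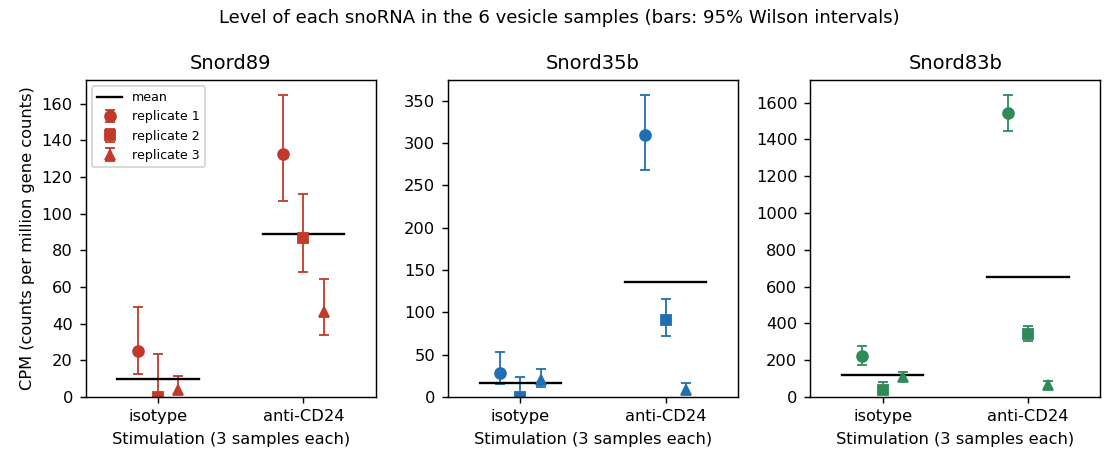
Level of Snord89, Snord35b and Snord83b in CPM (linear axes that differ between panels) in the 3 isotype and 3 anti-CD24 samples, with the replicate number as the symbol, 95% Wilson intervals as bars and the group mean as a line. The anti-CD24 samples of Snord89 lie between 46.6 and 133 CPM, above the highest isotype sample at 24.8 CPM, whereas anti-CD24 replicate 3 falls among the isotype samples for Snord35b (7.55 CPM) and Snord83b (64.2 CPM).

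Values per length have 2 limits. The RNA was not fragmented, so counts need not rise with length, and the lengths of Snord89 and Snord83b depend on the annotation. Compared per length, the level of Snord83b was 1290 ± 988 CPM per kb in the isotype group and 6904 ± 8357 CPM per kb in the anti-CD24 group (± SD, n = 3 each). Snord35b had 182 ± 165 and 1564 ± 1794 CPM per kb in these groups (± SD, n = 3 each). Snord89 had 87.1 ± 121 CPM per kb in the isotype group (± SD, n = 3) and 424 to 1207 CPM per kb in the anti-CD24 samples, with a mean of 807. Snord35b and Snord89 did not differ beyond their spread between libraries in either group, and in the anti-CD24 samples the spread of Snord83b also covered both. Within each library, however, Snord83b was the highest of the 3 per kb. It had 16403, 3626 and 683 CPM per kb in anti-CD24 replicates 1, 2 and 3. The order of Snord89 and Snord35b changed between libraries. Snord89 had 424 CPM per kb and Snord35b 86.8 CPM per kb in anti-CD24 replicate 3, while in replicate 1 they had 1207 and 3560 CPM per kb.

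The share of each snoRNA among the snoRNA counts of its library gives the same values without the large difference in total snoRNA. Snord89 made up 0.486%, 0% and 0.116% of the snoRNA counts in isotype replicates 1, 2 and 3, and 0.596%, 1.03% and 2.73% in the anti-CD24 replicates. The groups still did not overlap, but anti-CD24 replicate 1 (95% Wilson interval 0.480% to 0.740%) and isotype replicate 1 (0.247% to 0.957%) could not be told apart at this depth. On this scale anti-CD24 replicate 3 was the highest sample, whereas in CPM it was the lowest of its group. The 0 counts in isotype replicate 2 allow a share of up to 0.556% (3 counts), and the upper end of its Wilson interval, 0.706%, was also above anti-CD24 replicate 1.

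Snord83b made up 4.32%, 1.11% and 3.18% of the snoRNA counts in the isotype samples and 6.92%, 4.05% and 3.77% in the anti-CD24 samples. It was higher after anti-CD24 at each replicate number, by 2.61, 2.94 and 0.583 percentage points, but the groups overlapped through isotype replicate 1. In replicate 3 the samples could not be told apart at this depth. The Wilson interval was 2.88% to 4.92% after anti-CD24 and 2.57% to 3.93% in the isotype sample. In replicates 1 and 2 the intervals of the same-numbered samples did not overlap. Snord35b made up 0.547%, 0% and 0.582% in the isotype samples and 1.39%, 1.08% and 0.443% in the anti-CD24 samples. Replicate 3 was again in the opposite direction, though its Wilson intervals overlapped (0.203% to 0.963% after anti-CD24, 0.353% to 0.959% in the isotype sample). The ratio of the group means fell on this scale from 9.26 to 7.24 for Snord89, from 8.58 to 2.58 for Snord35b and from 5.35 to 1.71 for Snord83b. The CPM ratios of Snord35b and Snord83b rested on anti-CD24 replicate 1, since without it they were 3.11 and 1.67, while that of Snord89 was 6.97. The share ratio of Snord89 rested on anti-CD24 replicate 3, and was 4.06 without it.

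**Figure D3:**
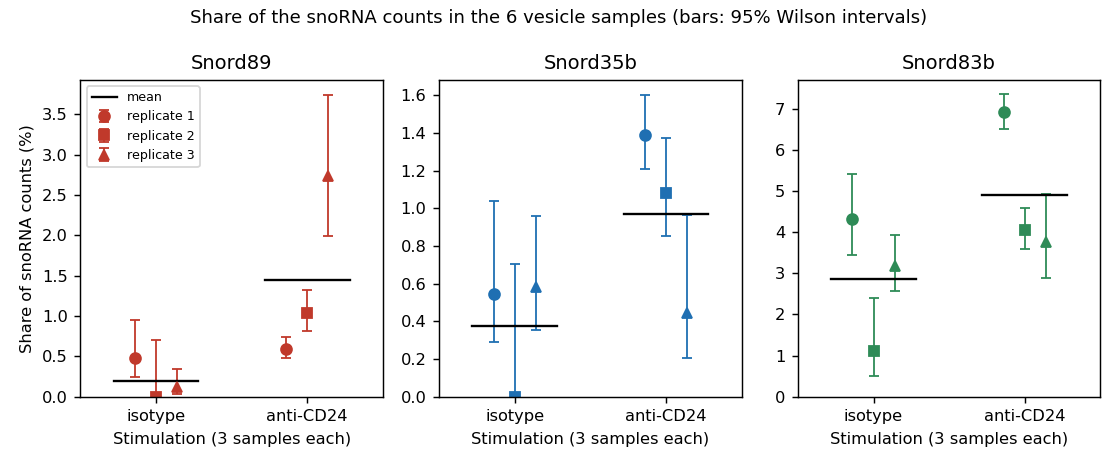
Share of the snoRNA counts (%) held by Snord89, Snord35b and Snord83b in the 3 isotype and 3 anti-CD24 samples, with the replicate number as the symbol, 95% Wilson intervals as bars and the group mean as a line. Anti-CD24 replicate 3 is the highest sample for Snord89 (2.73%) and within the isotype range for Snord35b (0.443%), and for Snord83b (3.77%) it lies below isotype replicate 1 (4.32%).

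The fit that chose the snoRNAs was edgeR's quasi-likelihood test on the genes with at least 1.0 CPM in 3 or more samples. Its log2 fold difference, anti-CD24 over isotype, was 3.28 for Snord89 (SE 1.04), 2.84 for Snord35b (SE 0.95) and 2.34 for Snord83b (SE 0.80). The unadjusted p values by which they were picked were 0.00156, 0.00280 and 0.00341 from edgeR, and after Benjamini-Hochberg adjustment over all genes tested each was 0.49. None of the 3 passed 0.05 after adjustment, and 0.0666% of all genes tested did. Snord83b was the last inside the choice, and the next named snoRNA was Snord92, with a log2 fold difference of 2.70 (SE 1.00) and an unadjusted p of 0.00682 in the same edgeR fit. An unadjusted p under 0.05 was reached by 7.93% of all genes tested, and 4.2% of all genes tested were also higher after anti-CD24. Snord92 had 31.0, 0 and 9.17 CPM in the isotype samples and 203, 78.8 and 10.1 CPM in the anti-CD24 samples, so its groups overlapped as those of Snord35b did.

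The other 42 named box C/D snoRNAs tested all had a log2 fold difference above 0 (100%), with a median of 1.76 and a range of 0.04 to 3.25. Over all genes tested, 44.7% were above 0 and the median was -0.29. None of the 42 passed an adjusted p of 0.05 in edgeR or DESeq2, and 16 (38.1%) had an unadjusted p under 0.05 in edgeR. By this measure the 3 snoRNAs lay in the upper part of a list that leaned one way as a whole, since Snord59a (3.25, SE 1.27) was also close to Snord89, and Snord72, Snord92, Snord8 and Snord4a were above Snord83b. These last names were picked after their values were seen. With DESeq2 39 of the 42 were above 0. With the snoRNA counts as library size, 32 were above 0 and the median was 0.37, while the values became 2.65 for Snord89, 1.24 for Snord35b and 0.76 for Snord83b.

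**Figure D4:**
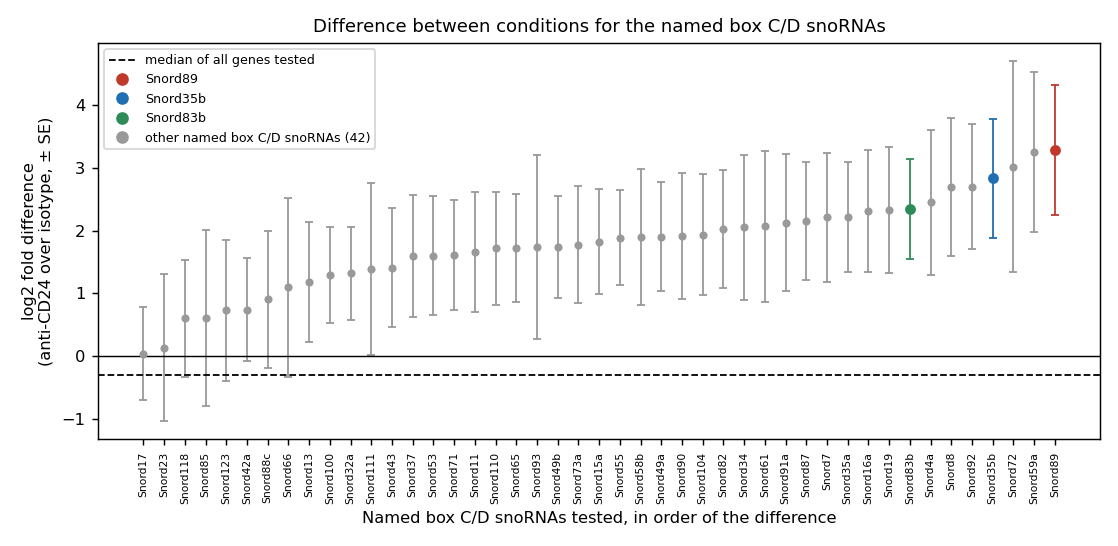
Log2 fold difference (anti-CD24 over isotype, with SE as bars) of the 45 named box C/D snoRNAs tested in edgeR's fit, in order of the difference, with the median of all genes tested (-0.29) as a dashed line. All points lie above 0 in this fit (of the 42 others, 39 do in DESeq2 and 32 with snoRNA counts as library size), and Snord89 (3.28), Snord35b (2.84) and Snord83b (2.34) stand among the upper values with error bars that overlap those of their neighbours.

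The highest CPM of the 6 samples was that of anti-CD24 replicate 1 for 36 of the 42 other named box C/D snoRNAs (85.7%), as for all 3 members, and for 18.7% of all genes tested. In anti-CD24 replicate 3 none of the 42 was in CPM above the highest isotype sample, against 11.4% of all genes tested. Snord89 was above it there and Snord35b and Snord83b were not. Accordingly, of the 45 named box C/D snoRNAs tested, Snord89 was the single one whose groups did not overlap in CPM, a pattern seen in 5.73% of all genes tested. As a share of the snoRNA counts the groups also did not overlap for Snord4a, Snord59a and Snord72 (7.14% of the 42), and for 3.46% of all genes tested. With TMM factors Snord89 was no longer the single one, since the groups also did not overlap for Snord100, Snord11, Snord43, Snord53, Snord59a, Snord66 and Snord7 (16.7% of the 42), against 8.06% of all genes tested, and 8 of the 42 were above the highest isotype sample in anti-CD24 replicate 3. Snord35b and Snord83b overlapped on both scales. Snord89 was chosen by the same contrast, so this separation is a description and not a test.

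**Figure D5:**
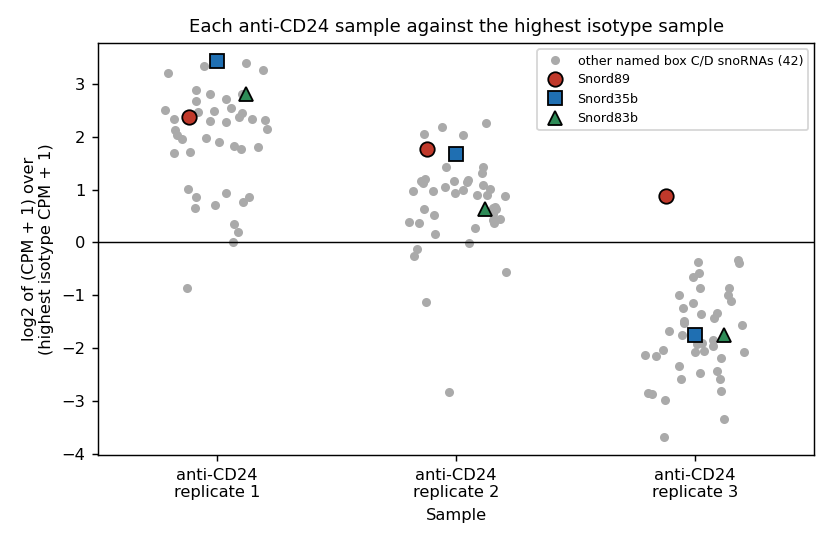
Log2 of each CPM plus 1 over the highest isotype CPM plus 1, for the 45 named box C/D snoRNAs tested in each anti-CD24 sample (other snoRNAs in grey, spread sideways for view). In replicate 1 most points lie above 0, and in replicate 3 Snord89 is the single point above 0 while Snord35b and Snord83b lie among the others (with TMM factors 8 other snoRNAs also lie above 0 there).

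The 3 most abundant named box C/D snoRNAs, Snord55, Snord32a and Snord17, give the scale. Snord55 had 720, 307 and 246 CPM in the isotype samples and 3659, 864 and 170 CPM in the anti-CD24 samples. Snord32a, encoded in Rpl13a, had 741, 536 and 419 CPM in the isotype samples and 2414, 1499 and 293 CPM in the anti-CD24 samples. Snord17 had 403, 476 and 892 CPM in the isotype samples and 1627 CPM in anti-CD24 replicate 1, but 91 and 89 counts in replicates 2 and 3. All 3 were highest in the same library as Snord35b and Snord83b. Without TMM factors, all 3 were below every isotype sample in anti-CD24 replicate 3. Snord83b had rank 5 among the named snoRNAs tested by its mean of 385 CPM over the 6 samples.

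The host genes of Snord89 and Snord83b were hardly detected. Gm15832, host of Snord89, had 1 count in all 6 samples together and did not pass the filter. Rpl3, host of Snord83b, had 5, 1 and 11 counts in the isotype samples and 6, 2 and 3 in the anti-CD24 samples, against 1402 counts of Snord83b in all. The log2 fold difference of Rpl3 was -1.02 (SE 1.22, adjusted p = 0.74 in edgeR's quasi-likelihood test over all genes). Neither a difference nor its direction was thus detectable at this depth.

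Snord43, another box C/D snoRNA in an intron of Rpl3 that the annotation lists with the biotype miRNA, did not keep a fixed ratio to Snord83b. It had 12, 7 and 13 counts in the isotype samples and 26, 131 and 22 in the anti-CD24 samples, so it was highest in replicate 2, not in replicate 1. There were 5.92, 0.857 and 6.31 counts of Snord83b for each count of Snord43 in the isotype samples and 36.2, 1.92 and 2.32 in the anti-CD24 samples. The log2 fold difference of Snord43 was 1.41 (SE 0.94, adjusted p = 0.55 in edgeR's fit). The predicted snoRNA Gm22077, between both of them in Rpl3, had no count in any sample.

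The mRNAs of the proteins that bind box C/D snoRNAs were at or near the limit of detection. Fbl had 5 counts in all, Nop56 3, Nop58 1 and Snu13 4, and Fbl, the single one tested, had a log2 fold difference of 1.25 (SE 1.64, adjusted p = 0.76 in edgeR's fit). None of the 7 assembly factors looked for, namely Nufip1, Znhit3, Znhit6, Ruvbl1, Ruvbl2, Pih1d1 and Rpap3, had a count. The counts give the mRNAs only, and the proteins were not analysed here.

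The genes whose levels over the 6 samples were most like each snoRNA were sought among the 331 other genes tested with at least 30 counts, by Pearson's r of log2(CPM + 1). For Snord89 they were 3 predicted genes of the biotype snRNA, Gm24873 (r = 0.99), Gm24260 (r = 0.99) and Gm22360 (r = 0.99). They had 2, 0 and 2 counts in the isotype samples and 10 to 12 in each anti-CD24 sample, and Gm24260 and Gm22360 had the same counts in every sample, so they may repeat 1 set of reads. For Snord35b they were the predicted snoRNA Gm22193 (r = 0.99), Snord92 (r = 0.98) and Snord61 (r = 0.98). For Snord83b they were Snord61 (r = 0.99), Snord35a (r = 0.98) and Snord13 (r = 0.98), the U13 RNA that pairs with 18S rRNA. None of the 6 places for Snord35b and Snord83b fell outside the snoRNAs, whereas none of the 3 for Snord89 was a snoRNA. The share of snoRNAs among the 331 genes was not counted, so these places are a description only. All 3 members were chosen by the same contrast, so alike levels among them follow in part from the choice. Among the members, r was 0.95 between Snord35b and Snord83b, 0.85 between Snord35b and Snord89 and 0.77 between Snord83b and Snord89. These values rest on 6 libraries that share their depth with every gene, and on few counts in isotype replicate 2. With Spearman's rho 1 of the 3 genes named for Snord35b, 1 of the 3 for Snord83b and all 3 for Snord89 were among the 3 listed. Every gene listed by rho had a value of 1, and ties at 1 over 6 samples make that list arbitrary. Snord35a and Snord13 ranked the samples as Snord83b did, and Gm22193 as Snord35b did, so by rank they were no less alike.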

How the data were processed

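EV RNA was sequenced by the authors without fragmentation or rRNA depletion on an IonTorrent PGM. They trimmed the reads, mapped them with tmap and counted them per gene with htseq-count (HTSeq 0.5.4p5, union mode, stranded, exons of Ensembl genes, GRCm38), and deposited raw counts for each sample. The 5 summary lines were left out. Symbols, positions and transcripts came from GENCODE M21, and 419 of 47729 genes were not in it. Named box C/D snoRNAs are genes with a Snord symbol.

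The 6 samples were grouped by their titles. The conditions were compared by edgeR's quasi-likelihood test (edgeR 4.0.16, R 4.3.3) with TMM factors, no covariate, a minimum of 1.0 CPM in 3 samples and Benjamini-Hochberg adjustment. The SE is the log2 fold difference over the square root of F. The script was tested on simulated data. The members and lists were chosen with earlier results of these data known. Besides the members, the text names host genes of Snord89 and Snord83b, snoRNAs in the same host, the next snoRNA by p, the 3 most abundant, the snoRNP genes and the 3 genes most alike per member. The fit was repeated with DESeq2 1.42.0, with library size without TMM, with edgeR's exact test, rRNA genes removed, snoRNA counts as library size, other filters, a replicate block and each sample left out, and levels and patterns with other denominators and Spearman's rho. TMM-scaled CPM was added after seeing the data. Intervals are 95% Wilson intervals, except exact ones for ratios. Copies were sought with BLAST+ 2.17.0. Other steps used Python 3.11.15. The paper calls the replicates biological, and the labels do not say whether they came from separate cultures. P-values measure the spread between these samples. Some items are not reported here.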

Additional observations from a re-analysis of the deposited data

How the results depend on the processing

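The log2 fold differences of the 3 snoRNAs were above 0 under all 13 alternatives of each and moved by less than the spread between replicates. They ran from 2.58 to 4.92 for Snord89, from 1.24 to 3.52 for Snord35b and from 0.76 to 2.99 for Snord83b, and leaving out 1 sample at a time gave 2.58 to 4.92, 1.78 to 3.52 and 1.12 to 2.99. With the replicate block they were 3.78, 2.52 and 2.04. Deviations of same-numbered samples from their group means had correlations of -0.030, -0.024 and -0.11 over the genes tested. Rpl3 was below 0 throughout, from -1.98 to -0.65. The median of all genes tested shifted with the scaling, from -0.29 to -0.97 in DESeq2, -1.31 with snoRNA counts as library size and -0.08 with rRNA genes removed.

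The number of genes with an adjusted p under 0.05 was 1 in edgeR's fit, 0 in DESeq2 (95 at an unadjusted p under 0.05), 0 with the replicate block (20 unadjusted), 2 with no filter, 2 with at least 10 counts in all, and 0 to 47 with 1 sample left out. Without anti-CD24 replicate 1 it was 47 of 1119 genes tested and included Snord89 (adjusted p = 0.029 in edgeR's fit). Without anti-CD24 replicate 3 it was 3 of 1285 and included Snord83b (adjusted p = 0.048 in edgeR's fit). It was 0 without isotype replicate 1 (56 unadjusted) or anti-CD24 replicate 2 (103 unadjusted). The members were chosen by this contrast in these same samples, so their adjusted p values here are a description and not a test. Over all alternatives, edgeR's and DESeq2's adjusted p ran from 0.029 to 0.99 for Snord89, from 0.065 to 0.99 for Snord35b and from 0.048 to 0.99 for Snord83b. The cause was not tested.

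The choice of the 3 by smallest p depended on the settings. All 3 stayed in place with rRNA genes removed. Snord89 was lost without TMM, with no filter and with at least 10 counts in all, Snord83b with DESeq2 and edgeR's exact test, and Snord35b with the replicate block, leaving 2 each, and with snoRNA counts as library size 1, Snord89, was left. With 1 sample left out it was 1 to 3, with Snord89 alone left without anti-CD24 replicate 1, and Snord89 lost without isotype replicate 3 or anti-CD24 replicate 3. The 3 genes most like Snord89 were the same with Spearman's rho and with counts outside rRNA genes, while 1 and 3 of those of Snord35b and 1 and 2 of those of Snord83b were. The counts by Spearman's rho are arbitrary, since the genes listed were tied at a rho of 1. Without anti-CD24 replicate 1 the difference in mean CPM fell from 120 to 33.4 for Snord35b, from 528 to 81.3 for Snord83b and from 79.2 to 57.2 for Snord89. With TMM-scaled CPM, an alternative chosen after seeing the data, it was 106, 479 and 82.9 in that order. Isotype replicate 2, with 166129 counts, limits every value near 0, since 3 counts there are 18.1 CPM.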
